A study of Mus musculus with 3 samples.

Results

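The genes described are 44 markers of DNA replication and mitosis, taken from a fixed list of gene symbols and matched to the symbols of the deposited gene table, where all 44 of 44 were found among 32285 features. They form 3 groups: 16 S genes, which act around DNA synthesis, 23 G2/M genes, which act around mitosis, and 5 broad genes (Stmn1, Hmgb2, H2afz, Tuba1b and Tubb5), which are abundant in cycling cells but also present in resting ones. Liver tumours of MYC-ON mice of the C57BL6 strain, aged 18 weeks, were dissociated, and live CD45+ cells (CD45 is the surface protein of white blood cells) were sorted by flow cytometry. Single-cell 3' RNA libraries (10x Genomics v3 chemistry) were made from 3 such sorts: CONTROL, DU101 treated and DU102 treated, with 1 library each. The sources used here do not say what DU101 and DU102 are, at what dose they were given, which promoter drives MYC, or how many mice of which sex were used. Control and treated mice alike carried the MYC-ON tumours.

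A cell that enters division switches on the E2F-driven S genes (MCM helicase subunits, the clamp Pcna, nucleotide-making enzymes), and later the G2/M genes (cyclin B and Cdk1, mitotic kinases, kinetochore and spindle proteins). The G2/M genes are held back until late in the cycle by complexes that act on CHR promoter elements. Many of their promoters also carry CCAAT elements, which NF-Y binds. Most mature blood leukocytes are out of the cycle. T and NK cells re-enter it after activation, and granulocytes divide as precursors and stop before they mature.

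The promoters of the members show these elements, and a few are printed because they carry the S against G2/M contrast that the cell counts below use. RefSeq promoters (mouse build GRCm38.p6, 250 bases before to 50 bases after each start) were at hand for 37 of the 44 members, and not for Ccna2, Stmn1, Mcm4, Aurkb, Tpx2, H2afz and Gins2. The E2F strings TTCCCGC or TTGGCGC, searched on both strands, were in the promoters of 9 of 14 S genes (64.3%), 4 of 20 G2/M genes (20%) and 7.79% of all 27025 genes of the table (6.81% of its 32851 promoters, since a gene can have several). The CHR string TTTGAA was in 1 of 14 S genes, 15 of 20 G2/M genes (75.0%) and 20.2% of all genes (17.9% of promoters). The CCAAT string was in 10 of 14 S genes, 18 of 20 G2/M genes and 41.1% of all genes (37.4% of promoters), and CHR together with CCAAT was in 15 of 20 G2/M genes against 7.97% of all genes (6.95% of promoters). A match describes these letters and is not shown to be a bound site. The 150 bases before the start follow, 5' to 3' on the gene's strand, with E2F, CHR and CCAAT strings of either strand in capitals. The S genes are Mcm6 (chr1:128359706-128359855, minus strand), Rrm1 (chr7:102441545-102441694, plus) and Cdc6 (chr11:98908001-98908150, plus), and the G2/M genes are Cdk1 (chr10:69352913-69353062, minus), Cdc20 (chr4:118437344-118437493, minus), Top2a (chr11:99024190-99024339, minus) and Ube2c (chr2:164769779-164769928, plus).
Mcm6: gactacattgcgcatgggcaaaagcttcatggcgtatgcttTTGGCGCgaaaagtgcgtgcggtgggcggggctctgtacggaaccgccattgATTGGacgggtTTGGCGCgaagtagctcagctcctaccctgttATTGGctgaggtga
Rrm1: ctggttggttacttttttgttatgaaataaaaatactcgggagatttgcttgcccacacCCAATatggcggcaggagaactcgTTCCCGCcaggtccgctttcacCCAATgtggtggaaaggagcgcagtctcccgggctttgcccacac
Cdc6: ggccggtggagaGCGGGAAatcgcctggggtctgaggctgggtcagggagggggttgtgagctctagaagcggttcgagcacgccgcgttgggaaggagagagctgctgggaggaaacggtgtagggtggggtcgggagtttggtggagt
Cdk1: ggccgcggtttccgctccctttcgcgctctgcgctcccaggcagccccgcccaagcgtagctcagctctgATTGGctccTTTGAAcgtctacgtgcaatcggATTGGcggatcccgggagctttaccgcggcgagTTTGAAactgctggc
Cdc20: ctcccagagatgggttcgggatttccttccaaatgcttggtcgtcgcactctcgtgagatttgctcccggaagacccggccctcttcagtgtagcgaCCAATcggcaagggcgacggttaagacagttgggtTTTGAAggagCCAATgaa
Top2a: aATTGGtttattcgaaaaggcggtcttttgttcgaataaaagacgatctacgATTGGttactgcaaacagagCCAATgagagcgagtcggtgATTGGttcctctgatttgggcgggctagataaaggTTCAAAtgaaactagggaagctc
Ube2c: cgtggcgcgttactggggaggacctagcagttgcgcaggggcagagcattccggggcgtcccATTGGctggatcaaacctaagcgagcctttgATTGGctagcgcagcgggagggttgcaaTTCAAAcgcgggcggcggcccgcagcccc
Mcm6 held 2 E2F and 2 CCAAT strings and no CHR string in this stretch, whereas Cdk1 held 2 CHR and 2 CCAAT strings and Top2a 1 CHR and 4 CCAAT strings.

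The 3 libraries held 12639 (control), 15686 (DU101) and 13650 (DU102) cell barcodes with 91013198, 106604935 and 96817875 UMIs, that is, counted RNA molecules. After quality filters 10154, 13799 and 11461 cells were kept, with median UMI counts of 6336, 4832 and 5091. Cells were assigned to a lineage by 8 marker genes each, none of them a member, and 87.6 to 89.5% of kept cells were assigned. The CD45 gene Ptprc was detected in 94.8 to 97.5% of T cells and 99.2 to 99.8% of NK cells, but in 21.3 to 32.0% of hepatic cells. Libraries shared 37 to 57 barcodes in pairs. Xist RNA was in 56.0% of control cells against 0.138% (DU101) and 0.0698% (DU102), and Y-linked RNA was in 21.0, 46.8 and 52.5%, so the control library held cells of both sexes, and sex and treatment cannot be told apart over all cells. With 1 library per group there is no test between treatments, and every interval given is a 95% exact interval that covers counting error only, not the spread between mice. The DU101 and DU102 comparisons share the control library.

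A cell was counted as dividing when at least 4 of the 39 S and G2/M genes were detected after each cell was thinned to 1500 UMIs, and shallower cells were left out. Among cells with a lineage this count gave 11.6% in the control (1006 of 8651), 11.4% in DU101 (1274 of 11154) and 12.4% in DU102 (1137 of 9157). The near-equal totals came from different cells. NK cells made up 33.6% of the dividing control cells but 10.9 and 8.53% of those in DU101 and DU102, and granulocyte precursors made up 5.77% in the control against 30.2 and 34.2%. Macrophages supplied 11.5, 4.55 and 2.90%, and T cells a steadier 21.9, 25.2 and 25.3%. The make-up of all cells with a lineage and at least 1500 UMIs differed as well. NK cells were 12.5, 6.68 and 5.60% of these, and granulocyte precursors 0.902, 6.55 and 8.16%. Macrophages were 12.2, 7.29 and 5.61%, and T cells 20.5, 32.5 and 26.9%. Over the 12 lineages with at least 50 cells in every library the dividing share was 11.5, 11.7 and 12.2%. With each lineage weighted as in the control it was 11.5, 9.20 and 9.52%.

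The lineages differed widely in how many cells divided. Granulocyte precursors, cells with RNA for the granule proteins Elane, Mpo and Prtn3 that neutrophils pack before they mature, had the highest share, 74.4% (control, 58 of 78 cells), 52.7% (DU101, 385 of 731) and 52.1% (DU102, 389 of 747). Hepatic cells, which the CD45 sort should have removed, followed with 49.5, 49.5 and 37.5%. NK cells came next with 31.3, 18.7 and 18.9%, then conventional dendritic cells with 20.2, 18.5 and 15.1% and T cells with 12.4, 8.85 and 11.7%. The lowest were plasmacytoid dendritic cells, which produce interferon, with 0.535% (2 of 374 cells), 0.254% (1 of 393) and 1.03% (3 of 291) at median depths of 8149, 6674 and 7787 UMIs. These shares are taken as the background of the count, since T cells at shallower medians of 5630, 4099 and 4878 UMIs lay far above them. B cells, at 0.630 and 0.868% in control and DU101, were within that background.

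**Figure D1:**
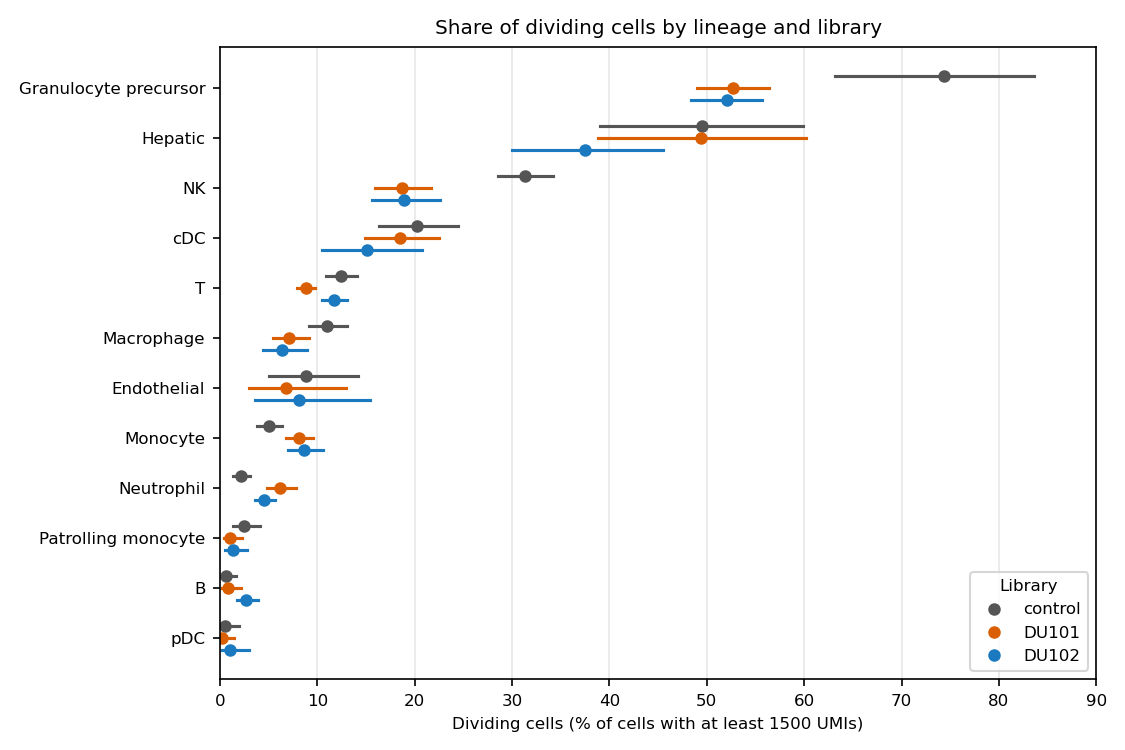
Share of dividing cells (%, x axis) in 12 lineages (y axis) for the control, DU101 and DU102 libraries; points are shares of cells with at least 1500 UMIs and bars are 95% Clopper-Pearson intervals. Granulocyte precursors lie at 52.1 to 74.4% and plasmacytoid dendritic cells at 0.254 to 1.03%; the control point of NK cells, 31.3%, lies above both treated points.

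NK cells, innate lymphocytes that kill stressed cells, divided less often in both treated libraries. In the control 338 of 1080 cells were dividing (31.3%, interval 28.5 to 34.2%), in DU101 139 of 745 (18.7%, 15.9 to 21.6%) and in DU102 97 of 513 (18.9%, 15.6 to 22.6%). The ratio to control was 0.596 (0.486 to 0.728) for DU101 and 0.604 (0.477 to 0.759) for DU102, and DU102 over DU101 was 1.01 (0.774 to 1.32). It stayed below 1 in 15 of 15 alternatives in each comparison, between 0.532 and 0.720 for DU101 and between 0.536 and 0.815 for DU102. In the control 73 NK cells were 1 gene short of the threshold and 47 sat exactly on it, against 45 and 22 in DU101 and 31 and 11 in DU102. Without thinning the shares were 63.9, 45.7 and 52.0%. Dividing NK cells held more RNA (median 17218 UMIs in the control) than the others (8874).

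The members' RNA summed over all NK cells was lower as well. A gene was called lower or higher by size, which is not a test, when its level in CPM (its UMIs scaled to the total UMIs of the lineage) differed at least 1.5-fold with the ratio's interval on that side of 1. By this rule 16 of 44 members were lower and 0 higher in DU101, where 4.83% of all 10451 genes measured were lower and 3.50% higher, and 21 were lower and 0 higher in DU102 (2.99% of all genes lower, 3.81% higher). The members' median log2 ratio was -0.42 in DU101 and -0.57 in DU102, against all-gene medians of -0.05 and 0.03.

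By role, lower members in NK cells ran from replication to mitosis. Among the 12 licensing and fork genes 3 were lower in each treated library. The level of Mcm2, a subunit of the replicative helicase, was 57.9 CPM in the control, 30.2 in DU101 and 43.7 in DU102, and Uhrf1, which guides DNA methylation onto new strands, read 52.0, 26.2 and 32.9 CPM. Mcm2 was lower by size in DU101 alone (ratio 0.522, 0.443 to 0.612), whereas Uhrf1 was lower in both (0.504 and 0.632). Pclaf, which binds Pcna at the fork, was 319 CPM in the control and 270 in DU101 but 182 in DU102 (ratio 0.569, 0.528 to 0.612). Pcna itself, the sliding clamp of the polymerases, was 240, 165 and 169 CPM (0.687 and 0.705), just short of the size rule. Mcm5, another helicase subunit, was 72.7, 56.7 and 52.2 CPM.

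Of the 4 nucleotide-supply genes, 2 were lower in DU101 and 3 in DU102, and Rrm2 was the 1 that differed by size between the treated libraries. Rrm2, the regulated subunit of ribonucleotide reductase, was 70.1 CPM in control NK cells, 61.8 in DU101 and 39.5 in DU102. Its ratio to control was 0.882 (0.781 to 0.994) in DU101 and 0.564 (0.480 to 0.660) in DU102. Tyms, which makes thymidylate, was 94.8, 77.4 and 59.9 CPM. Rrm1, the other reductase subunit, had the opposite order, 84.0, 50.4 and 63.7 CPM.

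Among mitotic genes, 4 of 6 cyclin, Cdk and APC/C genes were lower in each treated library, and 3 (DU101) and 5 (DU102) of 6 mitotic kinase and checkpoint genes. Cdk1, the mitotic kinase, was 89.6 CPM in the control, 61.3 in DU101 and 58.5 in DU102, and its partner Ccnb1 was 30.5, 19.9 and 18.9 CPM. Plk1, a kinase that drives mitotic entry, was 26.0, 13.2 and 13.1 CPM, a ratio of 0.507 (0.394 to 0.646) and 0.504 (0.379 to 0.661). Mki67, which coats mitotic chromosomes and is the usual proliferation marker, was 353, 220 and 230 CPM (0.622 and 0.652). Top2a, which untangles chromosomes, was 357, 268 and 226 CPM, lower by size only in DU102 (0.635, 0.594 to 0.678).

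The broad genes were less even, and Stmn1 was the one member above control in DU101. H2afz, a histone variant, was 1705, 1558 and 1535 CPM, a DU102 ratio of 0.901 (0.877 to 0.925). Stmn1, which destabilises microtubules, was 454 CPM in the control, 509 in DU101 and 321 in DU102, a ratio of 1.12 (1.07 to 1.17) and 0.708 (0.669 to 0.749). Tuba1b was 686, 484 and 401 CPM. Tuba1b and Tubb5 belong to tubulin families of near-identical copies, so their counts depend on how shared reads were assigned.

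The NK count of lower members was smaller among cells selected for Y-linked RNA, a match for sex that depends on detecting that RNA. It was in 18.3% of dividing and 18.2% of other NK cells of the control. In DU101 it was in 66.9 and 57.3%, and in DU102 in 77.3 and 65.6%. The part of this difference in the counts was not tested. Cells that pass this selection in every library are called sex-matched below. Among NK cells that had Y-linked but no Xist RNA, selected so in every library, 4 members were lower and 2 higher in DU101 (median log2 ratio -0.15; 5.59% of all genes lower and 8.41% higher in those cells), and 0 were lower and 0 higher in DU102 (median -0.05; 1.94% lower, 6.86% higher). With that selection in the control alone 6 were lower and 2 higher in DU101 (6.10% of all genes lower, 8.67% higher). In DU102 4 were then lower and 0 higher (2.34% lower, 7.22% higher). The dividing share among those matched cells had ratios of 0.720 (DU101) and 0.735 (DU102), and both intervals spanned 1. Among cells with fewer than 2 granulocyte precursor markers, 17 members were lower in DU101 and 34 in DU102, where 5.25 and 4.24% of all genes were lower. The part of sex and of such carried-over RNA in the result was not tested.

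Within dividing NK cells the members stood at similar levels in the 3 libraries. The 16 S genes summed to 2475 CPM in the control, 2518 in DU101 (ratio 1.02) and 2355 in DU102 (0.952), and the 23 G2/M genes to 4801, 4900 (1.02) and 4955 CPM (1.03). In NK cells not counted as dividing the S sum was 655, 523 and 488 CPM, ratios of 0.799 (0.760 to 0.841) and 0.745 (0.704 to 0.788), and the G2/M sum was 312, 282 and 289 CPM. Since these genes define the count, the values describe the split and do not test it.

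T cells showed a smaller and less even pattern. Dividing cells were 220 of 1770 in the control (12.4%, 10.9 to 14.1%), 321 of 3629 in DU101 (8.85%, 7.94 to 9.82%) and 288 of 2461 in DU102 (11.7%). The ratio to control was 0.712 (0.598 to 0.849) for DU101 and 0.942 (0.787 to 1.13) for DU102, and DU102 over DU101 was 1.32 (1.12 to 1.56). The DU101 ratio was below 1 in 15 of 15 alternatives, from 0.574 to 0.873, with an interval that spanned 1 in 3 of them, while that of DU102 ran from 0.624 to 1.14. Among the sex-matched cells the DU101 ratio was 0.873, with an interval that spanned 1. At the threshold, 77, 167 and 148 T cells were 1 gene short and 41, 58 and 62 sat exactly on it.

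Among T cell subsets, CD4 cells had the lowest DU101 ratio. Of CD4 T cells, helper cells without RNA of the regulatory factor Foxp3, 11.2% divided in the control, 4.51% in DU101 and 8.92% in DU102. The DU101 ratio was 0.403 (0.235 to 0.688). CD8 T cells, the killer cells, divided at 15.1, 11.2 and 14.0%, a DU101 ratio of 0.741 (0.586 to 0.940). Foxp3-positive regulatory T cells had 9.38, 11.5 and 14.3%, with intervals of the ratio that span 1 in both comparisons (0.639 to 2.45 and 0.762 to 3.14). The difference between these subsets was not tested.

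In summed T cell RNA, 7 of 44 members were lower and 0 higher by size in DU101 (4.79% of all 11646 genes lower, 4.70% higher). They were the replication genes Mcm2, Mcm3, Cdc6 and Uhrf1, the proliferation marker Mki67, and the spindle checkpoint kinases Bub1 and Bub1b. None of the 44 was lower or higher in DU102 (2.29% of all genes lower, 3.80% higher). All 16 S genes lay below a log2 ratio of 0 in DU101 (median -0.44) and in DU102 (median -0.21). The 23 G2/M genes had medians of -0.14 in DU101 and 0.10 in DU102, where 17 of 23 lay above 0, against all-gene medians of -0.02 and 0.04.

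Single genes show that split in T cells. Pcna was 189 CPM in the control, 133 in DU101 and 156 in DU102, with ratios of 0.703 (0.664 to 0.744) and 0.824 (0.778 to 0.873). Mcm5 was 55.5, 38.1 and 49.99 CPM, Rrm2 43.3, 31.6 and 35.8 CPM, and Tyms 58.0, 56.3 and 56.5 CPM. Uhrf1 had the lowest DU101 level against control, 22.5 against 40.0 CPM (0.562, 0.493 to 0.641).

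The mitotic genes were nearer to control. Ccnb1 was 15.2, 18.0 and 21.4 CPM, highest in DU102 (1.40, 1.17 to 1.69), and Cenpe, a kinetochore motor, was 30.5 CPM in the control and 42.5 in DU102. Cdk1 was 40.4, 34.0 and 41.6 CPM and Top2a 195, 165 and 181 CPM. Mki67, at 191, 123 and 179 CPM, was lower by size in DU101 (0.646, 0.610 to 0.685), as were Bub1 and Bub1b. Of the broad genes, Stmn1 was 260, 249 and 209 CPM and H2afz 935, 960 and 1005 CPM.

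These T cell counts moved with the choice of cells. With at least 5 T markers, or a lead of 2 markers over the next lineage, 4 members instead of 7 were lower in DU101 (4.31 and 5.10% of all genes lower). Among the sex-matched cells, 4 were higher and 3 lower in DU101 (9.73% of all genes higher, 5.32% lower) and 12 were higher and 0 lower in DU102 (7.94% higher, 2.12% lower). Among cells with fewer than 2 markers of the granulocyte precursor panel, 14 were lower in DU101 and 23 in DU102, where 5.65 and 4.13% of all genes were lower, and 0 were higher. At least 2 such markers were seen in 51.0% of dividing and 48.4% of other T cells of DU102, and the part of such carried-over RNA was not tested.

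**Figure D2:**
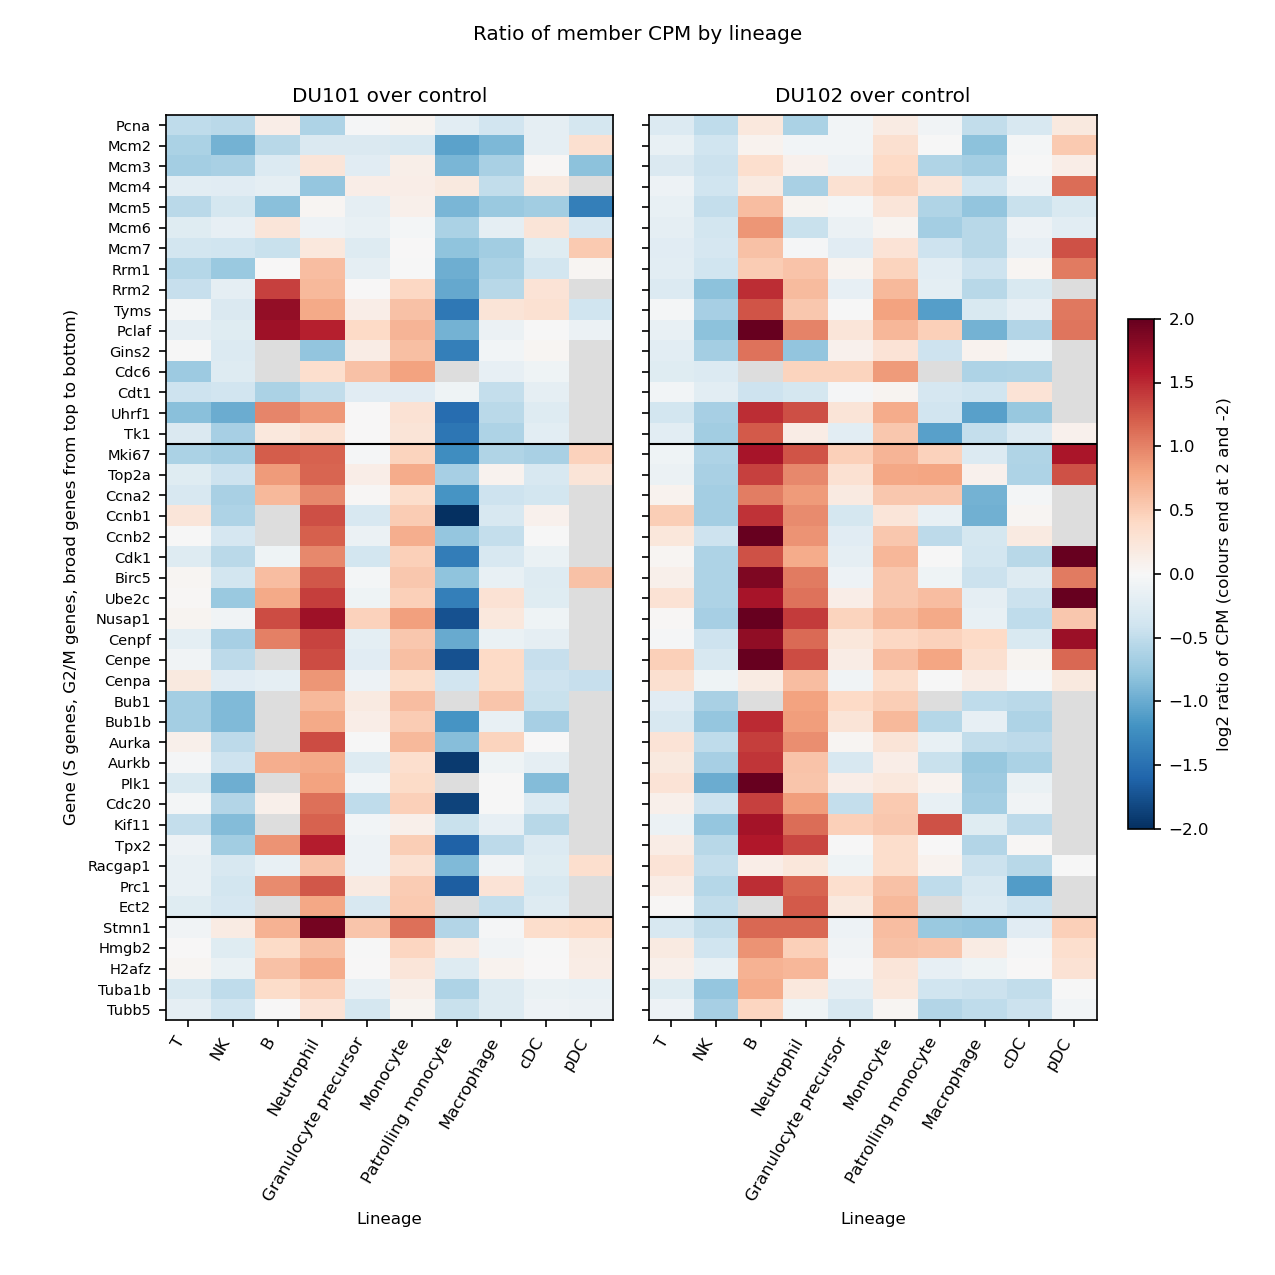
log2 ratio of CPM (colour) of each member (y axis) in 10 lineages (x axis), DU101 over control on the left and DU102 over control on the right; grey marks members with fewer than 30 UMIs over both libraries, and black lines part S, G2/M and broad genes. NK columns are blue in both panels apart from Stmn1 in DU101, neutrophil columns are red for most G2/M genes, and the S genes of T cells are pale blue in both panels.

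Granulocyte precursors, with the highest dividing share of the 12 lineages, had nearly level members in RNA summed over all their cells. Their share was lower in both treated libraries, at ratios of 0.708 (0.536 to 0.95) and 0.70 (0.530 to 0.940), and lay below 1 in 15 of 15 alternatives. The interval spanned 1 in 7 of those 15 for each treated library: among sex-matched cells, with at least 5 own markers, with a lead of 2 markers, with 6 genes, with G2/M genes alone, and after thinning to a lower or a higher depth. The alternative on precursor markers leaves these cells as they are. By size 1 member was higher in DU101 (Cdc6, which loads the helicase, 35.4 against 23.5 CPM) and 0 in DU102, with 0 lower in either, where 8.75 and 12.8% of all genes were higher and 4.41 and 3.84% lower. Only 78 control cells entered the share against 731 and 747.

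In these precursors Cdk1 was 167 CPM in the control, 130 in DU101 and 146 in DU102, and Ccnb1 was 69.0, 55.1 and 54.1 CPM. Mki67 was 249, 246 and 346 CPM, highest in DU102 (1.39, 1.28 to 1.51), and Top2a was 312, 341 and 387 CPM. The replication genes stood close together. Pcna was 226, 223 and 219 CPM, Mcm5 94.9, 83.6 and 92.4, Rrm2 182, 184 and 163, and Tyms 99.95, 110.1 and 99.7 CPM. Stmn1 was again highest in DU101, at 622 CPM against 425 in the control and 395 in DU102, while H2afz was 2178, 2191 and 2132 CPM.

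The precursors not counted as dividing were shallower in the treated libraries. Their median was 23800 UMIs in the control (20 cells) but 6851 in DU101 (346 cells) and 7134 in DU102 (358 cells). Only 62.4 and 69.0% of them had at least 5 of 8 precursor markers, against 93.0 and 93.8% of the dividing ones. In the precursors not counted as dividing the S genes summed to 1639 CPM in the control, 1221 in DU101 and 1076 in DU102. In the dividing ones they summed to 1731, 1977 and 1953 CPM. In those not counted as dividing, the members' median log2 ratio was -0.34 (DU101) and -0.61 (DU102), against all-gene medians of 0.07 and 0.15. Since these genes define the count, the values describe the split and do not test it. The part of these shallower cells in the lower share was not tested.

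Cells gated as neutrophils, which as mature cells do not divide, had more dividing cells in the treated libraries: 24 of 1134 in the control (2.12%), 67 of 1078 in DU101 (6.22%) and 76 of 1666 in DU102 (4.56%). The ratios were 2.94 (1.82 to 4.90) and 2.16 (1.35 to 3.57), above 1 in 14 of 15 and 15 of 15 alternatives. The exception was DU101 among cells with fewer than 2 granulocyte precursor markers, where 0 of 240 cells divided against 6 of 887 in the control (upper end of the interval of that DU101 share 1.52%) and 4 of 256 in DU102. The DU102 interval spanned 1 in that setting and against control cells selected for Y-linked RNA. Under 1500 UMIs, and so left out, were 8.62, 23.8 and 15.3% of gated neutrophils, and without thinning the DU101 ratio was 1.99. In the dividing cells RNA for the secondary granule proteins, made midway in granulocyte maturation, was at 96426, 101647 and 108097 CPM in them against 22577, 71018 and 67951 in the other neutrophils. RNA for the primary granule proteins, made earlier, was at 86.6, 170 and 130 CPM against 49.8, 160 and 197, so it was lower in dividing cells of DU102. RNA of the mature neutrophil markers was at 595, 1150 and 1359 CPM against 11568, 10817 and 16473. At least 2 granulocyte precursor markers were seen in 66.7, 86.6 and 85.5% of the dividing ones.

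Of the members, 28 were higher and 2 lower by size in DU101 neutrophils (7.69% of all genes higher, 20.3% lower) and 25 higher and 2 lower in DU102 (5.96% higher, 29.2% lower). The higher ones included 20 of 23 G2/M genes in each library, with median log2 ratios of 1.19 and 0.94 against all-gene medians of -0.19 and -0.35. Nusap1, a spindle-binding protein, was 24.4 CPM in the control, 78.9 in DU101 and 64.3 in DU102, and Stmn1 was 33.9, 128 and 75.6 CPM. Pcna went the other way, at 61.6, 40.4 and 39.6 CPM (0.655 and 0.643), as did Mcm4, a helicase subunit (0.583 and 0.641). With edgeR's TMM scaling, which evens out that all-gene shift, the ratios were 0.753 and 0.813 for Pcna and 0.670 and 0.811 for Mcm4, and none passed the size rule. With a lead of 2 markers 16 members were higher in each treated library (7.15 and 5.69% of all genes higher). Among sex-matched cells 27 (DU101) and 23 (DU102) were higher (11.2 and 6.06% of all genes), and with that selection in the control alone 19 and 14 (8.26 and 4.63%). Among cells with fewer than 2 granulocyte precursor markers only 14 (DU101) and 15 (DU102) members could be measured, and 1 and 7 were higher (6.52 and 5.27% of all genes).

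Macrophages, gated by complement C1q, Mrc1, Trem2 and other genes, divided less often in the treated libraries, in 116 of 1057 cells of the control (10.97%), 58 of 813 of DU101 (7.13%) and 33 of 514 of DU102 (6.42%). The ratios were 0.650 (0.466 to 0.898) and 0.585 (0.385 to 0.868), below 1 in 15 of 15 alternatives for each. Under 1500 UMIs, and so left out, were 20.8, 26.7 and 31.4% of gated macrophages. Unlike in NK cells, the dividing ones did not hold more RNA, with medians of 6110.5, 4508 and 4304 UMIs against 6341, 4914 and 5983 in the others. Ptprc was detected in 66.4, 66.1 and 67.8% of gated macrophages. Of the members, 7 were lower and 0 higher in DU101 (6.75% of all genes lower, 4.60% higher) and 11 lower and 0 higher in DU102 (2.89% lower, 3.91% higher). Of the 7, 6 were S genes (Mcm2, Mcm3, Mcm5, Mcm7, Rrm1 and Tk1), besides Mki67. Mcm2 was 22.2, 12.0 and 12.6 CPM and Stmn1 103, 101 and 59.9 CPM. With a lead of 2 markers the DU102 count was 6 lower and 1 higher (2.56% of all genes lower, 4.01% higher). With fewer than 2 granulocyte precursor markers 14 members were lower and 1 higher in DU101 and 21 lower in DU102 (7.08 and 3.70% of all genes lower). Among sex-matched cells 5 were lower and 1 higher in DU101 and 12 lower in DU102 (10.6 and 3.10% of all genes lower). With that selection in the control alone 15 and 20 were lower (12.4 and 3.39% of all genes lower). The interval of the share ratio spanned 1 in 5 of 15 alternatives for DU101 and 1 of 15 for DU102.

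Monocytes had a higher dividing share in the treated libraries, 59 of 1179 (5.00%), 120 of 1486 (8.08%) and 83 of 959 (8.66%), but that direction depended on the cells compared. The ratios were 1.61 (1.17 to 2.24) and 1.73 (1.22 to 2.46). Against Y-linked, Xist-free control monocytes they were 0.625, with an interval below 1, and 0.670, with one that spanned 1. Of the members, 11 were higher and 0 lower in DU101 (4.39% of all genes higher, 4.22% lower) and 13 higher and 0 lower in DU102 (4.46% higher, 2.47% lower). Against those selected control cells 0 were higher and 27 and 22 lower (8.94 and 4.92% of all genes lower, 8.46 and 8.35% higher). With the same selection in every library 0 were higher and 5 (DU101) and 10 (DU102) lower (6.61 and 3.96% of all genes lower), and the share ratios were 0.931 and 0.814. With a lead of 2 markers 23 (DU101) and 5 (DU102) were higher (4.52 and 3.55% of all genes higher). In the control, Y-linked RNA was in 64.4% of dividing monocytes against 23.5% of the others. In DU101 monocytes, where no Xist RNA was seen, it was in 73.3% of dividing cells (median 14123 UMIs) and 47.1% of the others (5986). Detection of Y-linked RNA thus differed between dividing and other cells of that library too. The parts of sex and of depth in the comparison with the selected control cells were not tested. At least 2 granulocyte precursor markers were in 47.5, 66.7 and 63.9% of dividing monocytes.

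**Figure D3:**
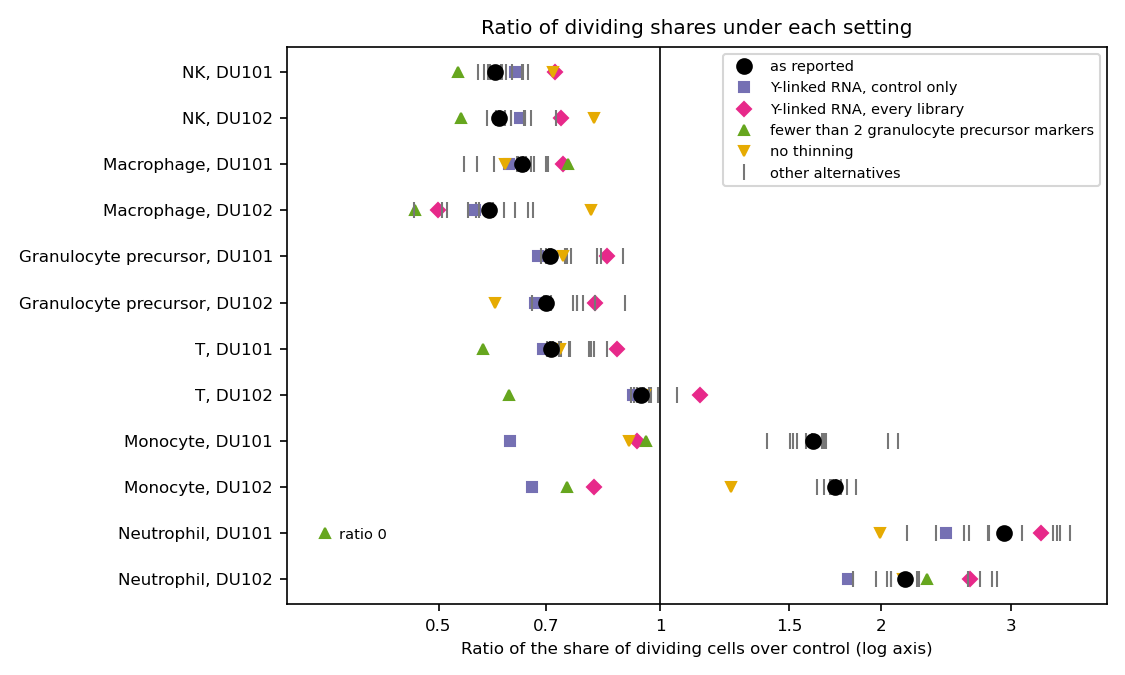
Ratio of the dividing share, treated over control (log x axis), for 6 lineages and both treated libraries (y axis); black circles are the values given in the text, coloured symbols the named choices of cells, and grey ticks the other alternatives. NK, macrophage and granulocyte precursor symbols all lie below 1, monocyte symbols lie on both sides, and neutrophil symbols lie above 1 except DU101 with fewer than 2 granulocyte precursor markers, a ratio of 0 that has no place on a log axis and is drawn at the left edge.

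In the remaining lineages fewer cells were called dividing or the counts depended on which cells were kept. In B cells 24 of 896 DU102 cells divided (2.68%) against 4 of 635 control cells, a ratio of 4.25 (1.46 to 16.9). Of the members, 31 of 41 measured were higher and 0 lower in DU102 B cells (5.03% of all genes higher, 4.09% lower), Cenpe at 26.3 against 1.98 CPM. Among cells with fewer than 2 granulocyte precursor markers 1 of 21 was higher (3.09% of all genes). In DU101 B cells 11 of 33 were higher and 2 lower (4.69% higher, 8.18% lower).

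Patrolling monocytes, which survey vessel walls, divided in 2.50% (14 cells), 1.05% (6 cells) and 1.36% (7 cells). There 30 of 40 members were lower and 0 higher in DU101 (7.06% of all genes lower, 3.25% higher), Ccnb1 at 2.18 against 10.1 CPM, and 7 of 41 were lower and 5 higher in DU102 (3.38% lower, 4.94% higher). Of the UMIs of the 39 counted genes in these cells, 54.5, 26.5 and 52.0% lay in those 14, 6 and 7 dividing cells. With fewer than 2 granulocyte precursor markers 23 were lower in DU101 and 16 in DU102, with 0 higher in either. The share of all genes is not given for that setting. In conventional dendritic cells 4 members were lower and 0 higher in DU101 (8.99% lower, 1.95% higher) and 7 lower and 0 higher in DU102 (5.74% lower, 3.18% higher). Prc1, which bundles microtubules between separating chromosomes, was at 24.6 against 53.2 CPM in DU102. With a lead of 2 markers 6 and 22 members were lower (9.85 and 6.68% of all genes), and with fewer than 2 granulocyte precursor markers 13 and 30 (8.84 and 4.88% of all genes). Among sex-matched cells, with 40 deep control cells, 12 were higher and 4 lower in DU101 (6.93% of all genes higher, 8.26% lower). In DU102 10 were then higher and 3 lower (5.92% higher, 4.51% lower). In plasmacytoid dendritic cells 12 of 26 were higher and 0 lower in DU102 (3.77% higher, 1.83% lower) with 3 cells called dividing, and in DU101 0 of 19 were higher and 1 lower (2.75% higher, 4.57% lower). With fewer than 2 granulocyte precursor markers 0 of 15 were higher and 2 lower in DU102, a setting for which the share of all genes is not given. Among sex-matched cells 3 of 21 were higher and 2 lower in DU102 (5.59% of all genes higher, 2.79% lower).

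The treated libraries were also compared with each other, DU102 over DU101. In T cells 0 members were higher and 0 lower (5.34% of all genes higher, 3.60% lower), with 41 of 44 above a log2 ratio of 0. In NK cells 0 were higher and 3 lower, namely Rrm2, Nusap1 and Stmn1 (6.28% higher, 3.24% lower). Stmn1 was also the single lower member in neutrophils (0 higher; 1.89% of all genes higher, 9.06% lower) and in granulocyte precursors (0 higher; 5.99% higher, 2.38% lower). In macrophages 7 were lower and 0 higher (10.4% higher, 4.70% lower), Stmn1 among them.

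In monocytes the helicase gene Mcm2 was the 1 higher member, with 0 lower (4.90% of all genes higher, 3.0% lower). In conventional dendritic cells Plk1 was higher and Prc1 lower (6.99% higher, 3.28% lower). In the other sets 19 members were higher and 0 lower in B cells (8.65% higher, 4.12% lower), 19 higher and 0 lower in patrolling monocytes (7.52% higher, 3.15% lower), and 12 higher and 0 lower in plasmacytoid dendritic cells (6.67% higher, 2.95% lower). Among cells with fewer than 2 granulocyte precursor markers these counts were 2 higher and 3 lower of 19, 0 and 0 of 12, and 0 higher and 1 lower of 11. The share of all genes in that setting is not given beside them.

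The balance of S against G2/M RNA in dividing cells was compared next. In T cells there were 0.658 S UMIs per G2/M UMI in the control, 0.550 in DU101 and 0.545 in DU102. Cells with more S than G2/M UMIs were 51.4, 39.6 and 41.3% of dividing T cells, with a DU101 ratio of 0.770 (0.593 to 1.00) and a DU102 ratio of 0.804 (0.617 to 1.05). In thinned cells the shares were 40.9, 38.0 and 38.2%, closer to each other. In CD8 T cells the shares were 54.9, 38.1 and 43.5%, and the DU101 interval lay below 1 (0.694, 0.491 to 0.984). In thinned CD8 cells they were 44.2, 38.1 and 40.8%, closer to each other, and no interval was computed. The subsets did not share 1 order. CD4 T cells had 0.525, 0.647 and 0.422 S UMIs per G2/M UMI, above control in DU101, with 50, 44.8 and 29.7% of cells on the S side. T cells outside the named subsets had 0.540, 0.455 and 0.653, above control in DU102, with 41.7, 40.4 and 40.5% of cells on the S side.

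NK cells had almost the same balance in all 3 libraries, 0.516, 0.514 and 0.475 S UMIs per G2/M UMI, with 38.2, 39.6 and 41.2% of cells on the S side. Granulocyte precursors had 0.595, 0.644 and 0.568. Dividing macrophages had 0.691 in the control against 0.435 and 0.452, but 46.6, 41.4 and 39.4% of cells on the S side, with intervals of the ratios that span 1. Dividing neutrophils had the least S RNA, 0.228, 0.212 and 0.176, with 20.8, 5.97 and 9.21% of 24, 67 and 76 cells on the S side. The intervals of the UMI ratios treat molecules of 1 cell as independent and are narrower than those of the cell shares.

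**Figure D4:**
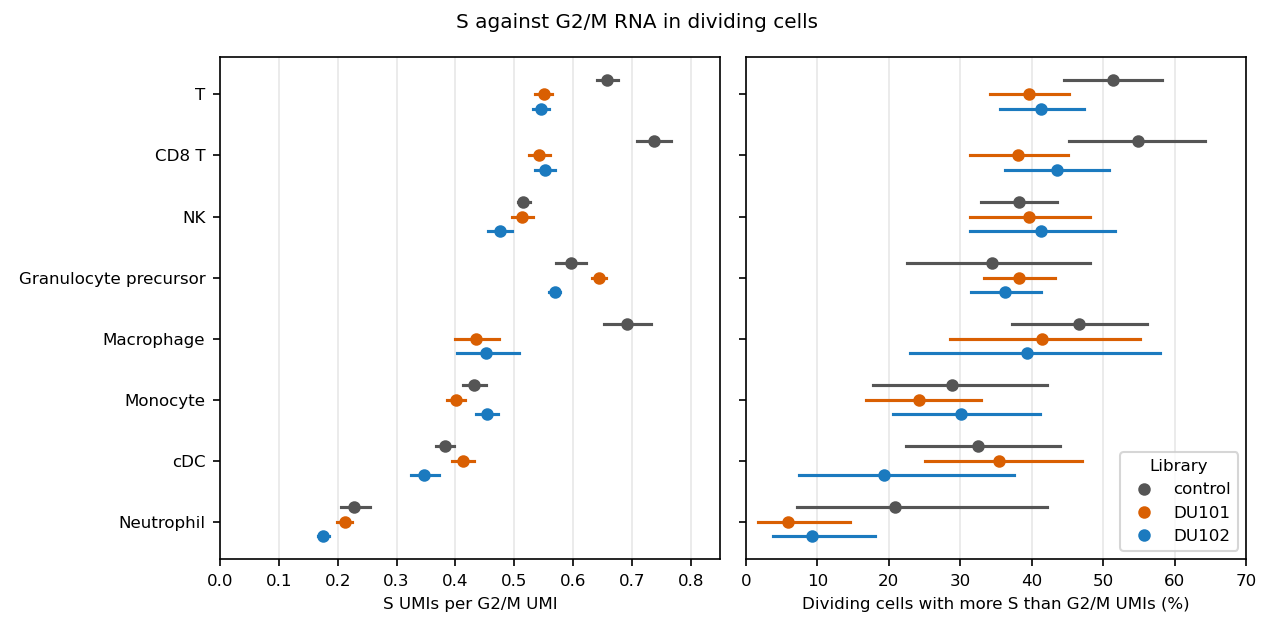
S UMIs per G2/M UMI (left x axis) and the share of dividing cells with more S than G2/M UMIs (%, right x axis) in 8 cell groups (y axis) for the 3 libraries, with 95% exact intervals. The control points of T and CD8 T cells lie to the right of both treated points in both panels, and dividing neutrophils lie lowest, at 0.176 to 0.228.

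Genes that played no part in the count show what else marks the dividing cells. In T cells all 5 broad genes were higher in dividing than in other cells in every library. Stmn1 was 884 against 59.4 CPM in the control, 1107 against 57.0 in DU101 and 757 against 46.1 in DU102. Of 42 other cell cycle genes that are not members, all 14 late regulators were higher in dividing T cells in every library, Foxm1, the activator of G2/M genes, by 22.5-, 43.9- and 18.4-fold, and Fbxo5, an inhibitor of the APC/C, by 19.4-, 27.1- and 16.5-fold. Of 9 E2F and pocket protein genes 8 were higher, and Rbl2, which helps hold cells in quiescence, was lower.

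The G1 genes were mixed. In T cells Ccne1, Ccne2, Cdk2, Cdk4 and Cdc25a were higher in dividing cells of every library, and Ccnd2, a D-type cyclin induced by growth signals, was lower at 0.510, 0.473 and 0.518 of the level in other T cells. The Cdk inhibitor Cdkn1b was lower (0.579, 0.560 and 0.621), while Cdkn2a, Cdkn2c and Cdkn2d were higher. All 4 genes linked to quiescence were lower, among them Btg1 (0.429, 0.375 and 0.388) and Klf2 (0.449, 0.363 and 0.457).

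Of the genes with at least 30 UMIs in every library of NK cells, 5 of 5 broad genes and 11 of 11 late regulators and 5 of 8 E2F and pocket protein genes were higher, and 3 of 4 quiescence genes and Ccnd2 (0.478, 0.453 and 0.423) were lower. In granulocyte precursors the contrast was weaker, with 3 of 12 late regulators and 0 of 8 E2F and pocket protein genes higher in every library. Their other cells also carried Stmn1, at 442, 428 and 222 CPM against 420, 708 and 457 in the dividing ones.

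**Figure D5:**
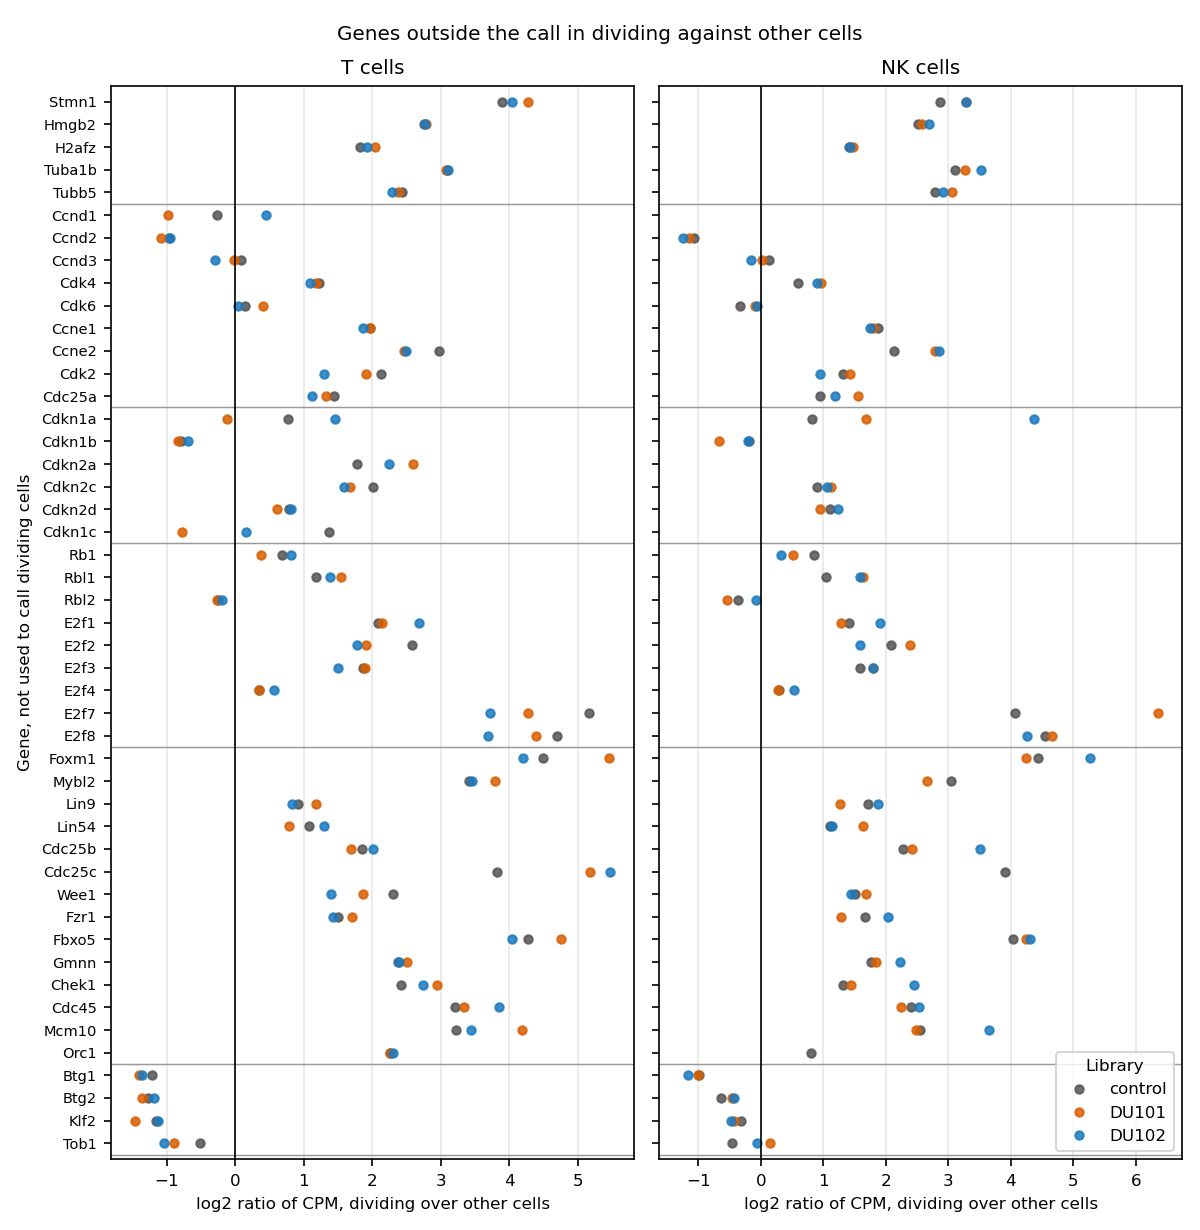
log2 ratio of CPM in dividing over other cells (x axis) for 47 genes not used to count dividing cells (y axis; grey lines part broad, G1, inhibitor, E2F and pocket protein, late regulator and quiescence genes), in T cells (left) and NK cells (right); points are the 3 libraries and genes with fewer than 30 UMIs in a library have no point there. Broad genes and late regulators lie above 0 in every library, while Ccnd2 and Btg1 lie below 0.

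Among dividing T cells, those with more S RNA and those with more G2/M RNA also differed in genes outside the count. In every library 11 of 44 such genes were higher on the S side, among them Ccne1, Ccne2, Cdc25a and the S-phase activator E2f1, whose ratio was 4.44, 3.67 and 2.96. On the G2/M side 13 were higher, among them Foxm1, the phosphatase gene Cdc25c and all 5 broad genes. Cdc25c on the S side was at 0.0629, 0.125 and 0.150 of its G2/M-side level, and Hmgb2, a chromatin protein, at 0.432, 0.505 and 0.488. NK cells had 8 and 10 of 36 such genes, with E2f1 at 4.39, 5.37 and 3.90 and Hmgb2 at 0.428, 0.439 and 0.428.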

How the data were processed

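The authors deposited raw counts of UMIs per gene and cell barcode for 3 libraries. The writing program is Cell Ranger 6.0.0 per the file headers, whereas Cell Ranger 2.1.1 and mm10 appear in the submitters' processing notes. The sources used here do not name the annotation release. The deposited cluster tables were not used. From the counts, cells were kept from 200 detected genes upwards and up to 10% of UMIs from mitochondrial genes, and doublets called by Scrublet (in scanpy 1.11.5) were removed. A cell was assigned to the lineage with the most of its 8 markers detected, if at least 3 were seen with a lead of at least 1; of the erythroid markers Ahsp was not matched in the gene table. Cells were thinned to 1500 UMIs without replacement for the dividing count. CPM are a gene's summed UMIs scaled to the lineage's total, for genes with at least 30 UMIs in both libraries together. Lineages needed 200 cells of 1500 UMIs in every library for expression (granulocyte precursors, with 78 in the control, were added as the lineage with the highest share) and 50 for a share. Ratio intervals are exact conditional Poisson and share intervals Clopper-Pearson. Named members are Mki67, Top2a, Ccnb1, Cdk1, Pcna, Mcm5, Rrm2, Tyms, Stmn1 and H2afz in T, NK and granulocyte precursor cells, plus the 2 highest and 2 lowest per lineage and comparison; others named were chosen after their values were seen. Mature neutrophils were planned as the background of the dividing count, and plasmacytoid dendritic cells, with the lowest shares, were used instead after the values were seen. The members and lists were chosen with earlier results of these data known. The scripts were tested on simulated data. TMM scaling came from edgeR 4.0.16 (R 4.3.3), and all else from Python 3.11.15 with scipy 1.17.1.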

Additional observations from a re-analysis of the deposited data

Results flagged for a closer look

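Cells left without a lineage were not used in any lineage comparison, and they too held dividing cells. They had too few markers of every panel, or panels tied for the most markers, and these kinds were not counted apart. Their dividing share was 21.1% in DU102 (196 of 931 cells) against 14.8% in the control (123 of 829) and 13.4% in DU101 (175 of 1309). The DU102 ratio to control was 1.42 (1.13 to 1.79). It was singled out because this signal in data outside the lineages lay above the control library. Which lineages these cells belong to was not tested.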

How the results depend on the processing

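No paired analysis was possible because each group has 1 library. Over 2183 alternative values, 1817 stayed within the interval of the reported value or within 1.5-fold of a reported count, 335 moved and 31 reversed. A reversal was counted only where the reported share interval excluded 1 or the gene was called by size. Ratios whose interval spanned 1 could therefore cross 1 and still count among the 1817. Some alternatives cannot change a value, such as a selection in the control alone for DU102 over DU101. As reported, calls summed over 9 lineages were 50 higher and 69 lower in DU101, 86 higher and 48 lower in DU102, and 52 higher and 12 lower for DU102 over DU101. The choices marked here as added were made after seeing the data. Requiring a marker lead of 2 gave 32 higher and 24 lower calls for DU102 over DU101, and Ube2c in plasmacytoid dendritic cells at 0.651 (over DU101) and 0.837 (over control). Using only those control cells that had Y-linked but no Xist RNA turned the monocyte share ratios to 0.625 (DU101) and 0.670 (DU102), moved those of conventional dendritic cells to 1.48 and 1.21 on 40 control cells, and gave 54 higher and 77 lower calls in DU102. It reversed Nusap1 (0.80) and Stmn1 (0.971) in DU101 monocytes, Mki67 (0.682) and Top2a (0.781) in DU102 monocytes, Top2a in DU102 patrolling monocytes (0.944), Plk1 in DU101 conventional dendritic cells (1.89) and Ube2c in DU102 plasmacytoid dendritic cells (0.851). Applied to every library (added), it gave share ratios of 0.873 and 1.14 in T cells, 0.931 and 0.814 in monocytes and 1.47 and 1.20 in conventional dendritic cells; it reversed Mcm5 in DU101 B cells (1.08), Mki67 (0.815) and Top2a (0.931) in DU102 monocytes and Plk1 in DU101 conventional dendritic cells (2.00). Keeping cells with fewer than 2 granulocyte precursor markers (added), which leaves fewer cells, gave T cell share ratios of 0.574, 0.624 and 1.09 (DU101, DU102, DU102 over DU101), monocyte ratios of 0.958, 0.748 and 0.780, and conventional dendritic cell ratios of 0.370 (DU102) and 0.495 (DU102 over DU101). The share ratio was 0 in DU101 neutrophils, in DU102 patrolling monocytes (also over DU101) and in plasmacytoid dendritic cells of both treated libraries, and the ratio of cells on the S side was 0 in DU102 monocytes over either library. Calls were then 15 higher in DU101, 13 higher and 130 lower in DU102, and 9 higher and 42 lower for DU102 over DU101. It reversed Pclaf in B cells (0.617 in DU101, 0.749 in DU102), Ccnb2 in B cells (0.756) and Stmn1 in neutrophils (2.15) over DU101, Mcm4 (1.45) and Pcna (1.04) in DU102 neutrophils, Kif11 (0.961) and Top2a (0.480) in DU102 patrolling monocytes, and Plk1 in conventional dendritic cells (0.557) and Cenpe in patrolling monocytes (0) over DU101. Asking for 6 of 39 genes put the DU102 T cell ratio of cells on the S side at 0.593. Without thinning the share ratios were 0.815 (NK, DU102), 1.08 (neutrophil, DU102 over DU101), 0.909 (monocyte, DU101) and 0.809 (granulocyte precursor, DU102 over DU101). TMM factors and weighting each cell alike each gave 21 lower calls for DU102 over DU101, and a minimum of 100 UMIs gave 54 higher calls in DU102 and 21 over DU101. The cause of these moves was not tested. Depth sets the counting error and also which cells enter the dividing count, since cells under 1500 UMIs were left out. With 1 library per group, no depth gives the spread between mice.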

Other observations

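Among the smaller lineages, plasma cells divided at 5.02% in DU101 (25 of 498 cells) and 23.6% in DU102 (17 of 72 cells), a ratio of 4.70 (2.38 to 9.06). The control had only 40 plasma cells. Kupffer cells, the resident macrophages of the liver, divided at 17.6% in the control (21 of 119 cells), and fewer than 50 were deep enough in each treated library. Among conventional dendritic cells, cDC1, which carry Xcr1 or Clec9a, divided at 20.2, 19.0 and 18.8%, and the others at 20.2, 17.4 and 6.56%. The last share was only 4 of 61 cells (interval 1.8 to 15.95%). Its ratio was 0.324 (0.084 to 0.903) to control and 0.376 (0.095 to 1.10) to DU101. The difference between cDC1 and the others was not tested.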
